A study of Homo sapiens with 9 samples.

Results

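The 10 genes described here encode the enzymes that remove superoxide and peroxides: the peroxiredoxins PRDX1, PRDX2, PRDX3, PRDX5 and PRDX6, the glutathione peroxidases GPX1 and GPX4, the superoxide dismutases SOD1 and SOD2, and catalase (CAT). They were picked by gene symbol from the 24344 genes of the count table, by a rule that sets no threshold on measured values, and all 10 were found and passed the filter on low counts. The RNA came from the established breast adenocarcinoma line MDA-MB-231, of human origin, grown in serum-containing medium and sequenced without strand information. The cells received Compound Kushen Injection (CKI, made from the herbs Kushen and Baituling) at 2 mg/mL, Kushen injection alone or Baituling injection alone, each of the single-herb injections at the ratio used for CKI, and RNA was analysed after 48 h. Each treatment had 3 libraries, called biological replicates in the design notes with no word on whether the cultures were separate, so the p-values measure the spread between these libraries. Untreated libraries were not analysed here, and every difference below is between treatments and not from untreated cells.

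The 9 libraries held 20144628 to 23782071 counts. The markers VIM, CD44, CAV1, KRT18 and EGFR, which this line expresses, had at least 3122 counts in every library, while the hormone receptor genes ESR1 and PGR, which it lacks, had at most 4. Defining markers of leukocytes (PTPRC, CD3E, CD68), endothelium (CDH5) and red cells (HBB, HBA1) had between 0 and 9 counts. Levels are given as CPM, counts brought to a common library size after TMM scaling (trimmed mean of M-values), and means as mean ± SD over 3 libraries. In bulk RNA, fewer cells that express a gene and less of its RNA per cell cannot be told apart.

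Superoxide dismutases turn superoxide into hydrogen peroxide, SOD1 with copper and zinc mainly in the cytosol and SOD2 with manganese in the mitochondrial matrix. Hydrogen peroxide is then removed by catalase in peroxisomes, by glutathione peroxidases at the expense of glutathione, and by peroxiredoxins, most of which draw their electrons from thioredoxin. GPX1 and GPX4 are selenoproteins, and GPX4 also reduces lipid peroxides within membranes, the reaction that keeps cells from ferroptosis.

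The reactive residues of these enzymes are written in the transcripts counted here. The glutathione peroxidases use selenocysteine, encoded by an in-frame TGA that would otherwise end translation, and the sequences around it are shown because GPX1 and GPX4 were the members that depend on this decoding. Capitals mark that codon, number 49 in GPX1 and number 73 in GPX4, each within a coding exon of the canonical transcript (GENCODE on GRCh37). GPX1 lies on the minus strand of chromosome 3 (window chr3:49395541-49395591) and GPX4 on the plus strand of chromosome 19 (window chr19:1105378-1105428).
GPX1: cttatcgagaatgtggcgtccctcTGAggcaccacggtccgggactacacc
GPX4: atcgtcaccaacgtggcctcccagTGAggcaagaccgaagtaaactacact
The cytosolic peroxiredoxins PRDX1 and PRDX2 react through a cysteine instead, and they are shown because they are near relatives whose RNA levels went opposite ways between treatments. Capitals mark the codon of that cysteine, number 52 in PRDX1 (chr1:45981406-45981456, minus strand) and number 51 in PRDX2 (chr19:12911810-12911860, minus strand), both in coding exons.
PRDX1: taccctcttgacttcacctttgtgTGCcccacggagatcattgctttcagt
PRDX2: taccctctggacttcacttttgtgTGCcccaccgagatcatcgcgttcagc
These windows shared 45 of 51 bases. Over the whole coding sequence PRDX1 and PRDX2 were 72.4% identical across 597 aligned bases, and the longest run of bases shared by their canonical transcripts was 14. GPX1 and GPX4 were 68.5% identical, with a longest shared run of 11 bases.

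Most members were lower in both Kushen-containing treatments than in Baituling, and GPX1 stood out among them. In CKI against Baituling 9 of the 10 members had an adjusted p under 0.05 in edgeR's quasi-likelihood test, beside 76.1% of all 14195 genes tested, so this number alone did not set the members apart. Of the 9, PRDX1 and CAT rose and PRDX2, PRDX5, PRDX6, GPX1, GPX4, SOD1 and SOD2 fell, SOD1 in the other direction when scaled by library totals. Over all genes 39.1% rose and 37% fell. Scaled by library totals, 4 members rose (PRDX1, PRDX3, SOD1 and CAT) and 5 fell, beside 8094 and 3210 of all genes. One member, GPX1, was also past a log2 fold change of 1 in either direction (called), beside 19.1% of all genes in either direction and 7.91% lower. The median log2 fold change of the members was -0.35 and that of all genes 0.03.

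In Kushen against Baituling the members divided in the same manner. Again 9 of 10 had an adjusted p under 0.05, beside 71.6% of all genes. PRDX1 and CAT rose and PRDX2, PRDX5, PRDX6, GPX1, GPX4, SOD1 and SOD2 fell, beside 35.6% and 36.1% of all genes, though SOD1 was at 0.01 with library totals and GPX4 at 0.00 with a length and GC correction. Scaled by library totals, 3 rose (PRDX1, PRDX3 and CAT) and 4 fell, beside 7183 and 3486 of all genes. GPX1 was the 1 member called, beside 15.2% of all genes in either direction and 6.73% lower. The median of the members was -0.24, against 0.02 for all genes. In both comparisons the 3 libraries of one group lay wholly above the 3 of the other for 9 members (78.3% of all genes for CKI and 73.1% for Kushen). Both comparisons use the same Baituling libraries, so their likeness is not independent evidence.

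CKI and Kushen differed much less. Here 7 of 10 members had an adjusted p under 0.05, all lower in CKI, beside 39.8% of all genes in either direction, 19.6% higher and 20.2% lower. These were PRDX1, PRDX3, PRDX5, GPX1, GPX4, SOD2 and CAT. The groups did not overlap for 7 members, beside 49.5% of all genes. These were not the same 7, since GPX4 passed with overlapping groups. SOD1, which did not pass, had separate groups and was higher in CKI. No member was called in edgeR or DESeq2, beside 1.9% of all genes, since the log2 fold change farthest from 0 was that of GPX1, at -0.56 in edgeR and -0.58 in DESeq2. In edgeR 7 members had an unadjusted p under 0.05. The median of the members was -0.12 against 0.01 for all genes. The number that passed fell to 4 with library totals (PRDX3, PRDX5 and GPX1 lower, SOD1 higher), beside 6055 of 14195 genes (4218 higher, 1837 lower). It was 3 without CKI replicate 1 (beside 4610 of 14345 genes), CKI replicate 2 (4550 of 14359) or Kushen replicate 2 (4962 of 14419).

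**Figure D1:**
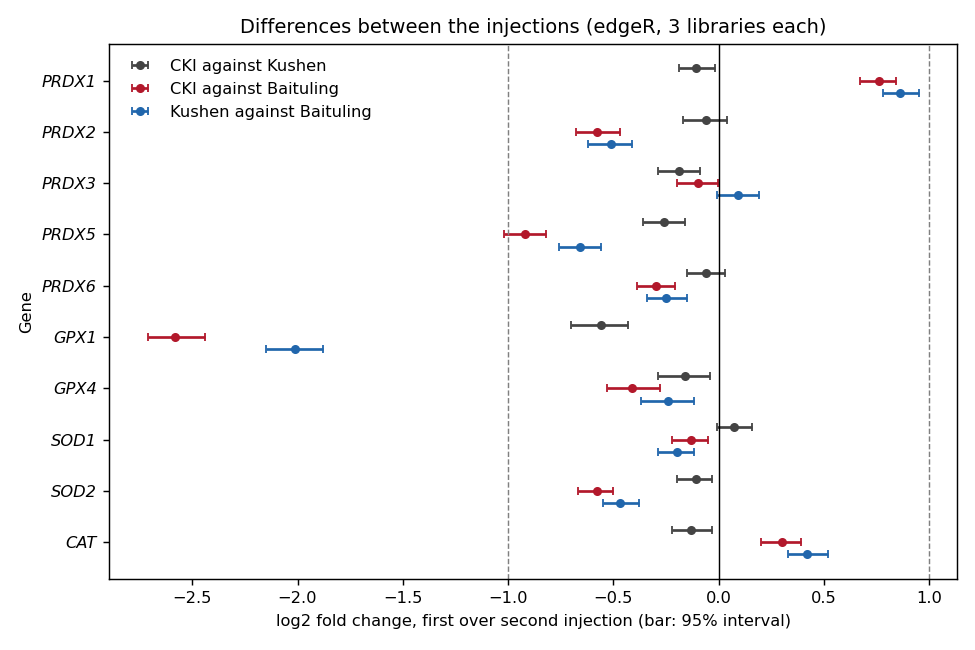
Log2 fold change of each of the 10 genes (horizontal axis, TMM scale, with its 95% interval) in the 3 comparisons, with dashed lines at -1 and 1. GPX1 lies at -2.58 and -2.01 against Baituling, apart from every other member, and PRDX1 and CAT lie above 0 in both; SOD1 and PRDX3 sit close enough to 0 that library totals turn SOD1 upward in both and PRDX3 upward in CKI against Baituling.

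GPX1, the cytosolic and mitochondrial glutathione peroxidase that reduces hydrogen peroxide, is a short gene on chromosome 3 (49394607 to 49396038, GRCh37, minus strand). Its level was 138, 152 and 156 CPM in CKI, 202, 222 and 234 CPM in Kushen, and 981, 838 and 839 CPM in Baituling. All 3 CKI libraries lay below all 3 Kushen libraries, and these far below all 3 Baituling libraries. The means were 149 ± 9.43, 219 ± 16.1 and 886 ± 82.5 CPM. GPX1 was therefore 5.96-fold lower in CKI than in Baituling (log2 fold change -2.58 ± 0.07 SE, edgeR adjusted p 3.84e-17) and 4.04-fold lower in Kushen than in Baituling (-2.01 ± 0.06, edgeR adjusted p 1.38e-15). Among the 14195 genes it had the 46th lowest log2 fold change in the first comparison and the 135th lowest in the second. Between CKI and Kushen it was again the member that differed most, at -0.56 ± 0.06 (edgeR adjusted p 1.75e-06). Over all settings tried, its log2 fold change stayed between -2.62 and -2.29 against Baituling in CKI and between -2.06 and -1.76 in Kushen. The annotation places another gene over GPX1 on the same strand, and how reads from the overlap were counted is not known.

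GPX4, the phospholipid hydroperoxide glutathione peroxidase (chromosome 19, 1103981 to 1106790, plus strand), had a narrower range. It measured 294, 301 and 321 CPM in CKI, 309, 356 and 362 CPM in Kushen and 438, 386 and 389 CPM in Baituling. The Baituling libraries were the highest, and Kushen replicate 1 lay among the CKI libraries. GPX4 had a log2 fold change of -0.41 ± 0.06 in CKI against Baituling (edgeR adjusted p 4.19e-06), or -0.12 with library totals (adjusted p 0.0405). For Kushen against Baituling it was -0.24 ± 0.06 (edgeR adjusted p 0.00119), which became 0.00 after a correction for transcript length and GC content and -0.03 with library totals. CKI against Kushen gave -0.16 ± 0.06 (edgeR adjusted p 0.0335), with overlapping groups. This last value did not pass without CKI replicate 1, CKI replicate 2, Kushen replicate 2 or Kushen replicate 3, nor with library totals. The count ratio of GPX1 to GPX4 within a library ran from 0.470 to 0.504 for CKI, from 0.623 to 0.655 for Kushen and from 2.16 to 2.24 for Baituling. That ratio needs no scaling between libraries, and its 3 ranges did not meet.

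**Figure D2:**
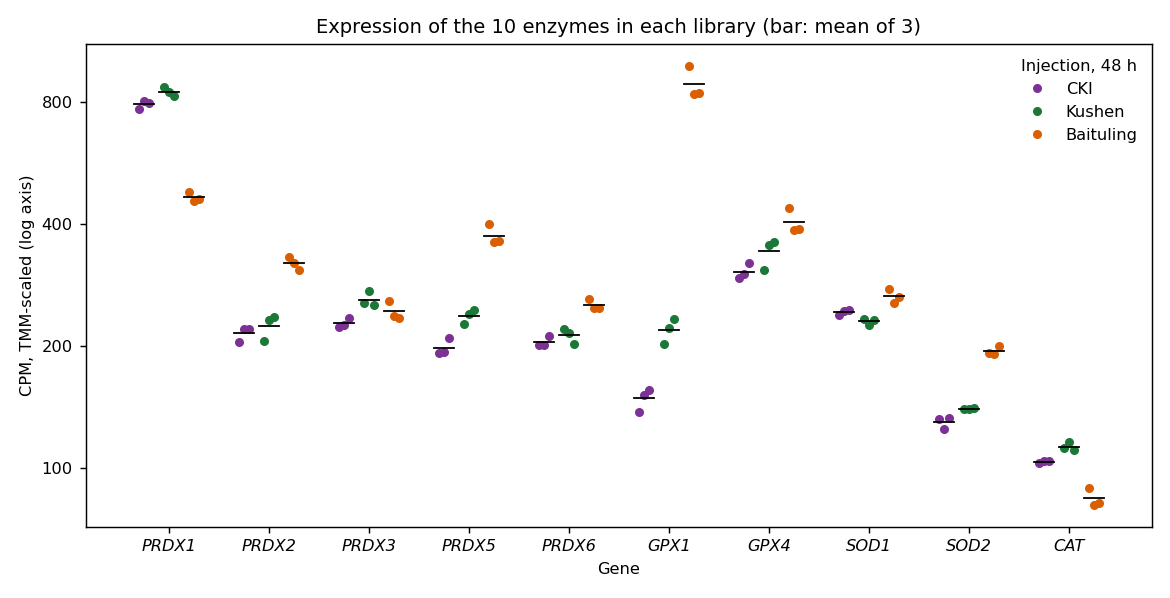
Level of each of the 10 genes in every library (CPM with TMM scaling, log axis), with points for the 3 libraries of CKI, Kushen and Baituling and a bar for each mean. GPX1 runs from 138 to 234 CPM in CKI and Kushen and from 838 to 981 CPM in Baituling, whereas PRDX1 is at 769 CPM or more in CKI and Kushen and at most 480.2 CPM in Baituling.

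PRDX1, the abundant cytosolic peroxiredoxin (chromosome 1, 45976586 to 46008404, minus strand), went the other way. It measured 769, 804 and 793 CPM in CKI, 871, 845 and 828 CPM in Kushen and 480.2, 456 and 462 CPM in Baituling. Every CKI and Kushen library lay well above every Baituling library. PRDX1 rose by 0.76 ± 0.04 in CKI over Baituling (1.69-fold, edgeR adjusted p 1.35e-12) and by 0.86 ± 0.04 in Kushen over Baituling (1.82-fold, edgeR adjusted p 2.84e-13). With library totals these values were 1.05 and 1.08, which would make PRDX1 a called gene in both. CKI against Kushen gave -0.11 ± 0.04 (edgeR adjusted p 0.0389), which no longer passed with library totals (-0.03), with a stricter filter, with a replicate block, or without any one of CKI replicates 1 to 3, Kushen replicates 1 and 2 and Baituling replicate 3. The gene overlaps MMACHC on the opposite strand, and reads from the overlap cannot be assigned in unstranded libraries.

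PRDX2, its cytosolic relative (chromosome 19, 12907634 to 12912614, minus strand), was lowest where PRDX1 was high. It measured 205, 220 and 220.3 CPM in CKI, 206, 232 and 236 CPM in Kushen and 331, 320.4 and 309 CPM in Baituling. The Baituling libraries stood above the other 6, and CKI and Kushen overlapped. PRDX2 fell by 0.58 ± 0.05 in CKI against Baituling (edgeR adjusted p 3.46e-09) and by 0.51 ± 0.05 in Kushen against Baituling (edgeR adjusted p 2.43e-08), or -0.29 and -0.30 with library totals. Between CKI and Kushen the value was -0.06, with a 95% interval of -0.17 to 0.04 (edgeR adjusted p 0.337). It was 0.01 with library totals and -0.12 without Kushen replicate 1, where it passed (edgeR adjusted p 0.0346). Within a library the counts of PRDX1 were 3.60 to 3.76 times those of PRDX2 under CKI, 3.52 to 4.22 times under Kushen and 1.42 to 1.49 times under Baituling. The Baituling range lay below the other ranges, which overlapped each other. In the annotation HOOK2 overlaps PRDX2 on the same strand.

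PRDX3, the mitochondrial peroxiredoxin (chromosome 10, 120927232 to 120938324, minus strand), differed little across the treatments. It measured 223, 225 and 235 CPM in CKI, 255, 273 and 252 CPM in Kushen and 258, 238 and 235 CPM in Baituling. CKI lay below Kushen in all libraries, and Baituling overlapped Kushen and met CKI at its upper end. PRDX3 fell by 0.19 ± 0.05 in CKI against Kushen (edgeR adjusted p 0.00287), or -0.12 with library totals. Against Baituling it was -0.10 in CKI (95% interval -0.20 to -0.0022, edgeR adjusted p 0.0593), turning to 0.19 with library totals. In Kushen against Baituling it was 0.09 (95% interval -0.01 to 0.19, edgeR adjusted p 0.0871). Neither passed at the TMM scale, and both passed in some alternatives.

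PRDX5, which acts in mitochondria, peroxisomes and cytosol (chromosome 11, 64085593 to 64089283, plus strand), fell in all 3 comparisons. It measured 192, 193 and 209 CPM in CKI, 227, 239.7 and 245 CPM in Kushen and 399, 361 and 364 CPM in Baituling. The groups were fully separate, in the order CKI, Kushen, Baituling. PRDX5 fell by 0.92 ± 0.05 in CKI against Baituling (1.89-fold lower, edgeR adjusted p 1.84e-12), by 0.66 ± 0.05 in Kushen against Baituling (edgeR adjusted p 3.59e-10) and by 0.26 ± 0.05 in CKI against Kushen (edgeR adjusted p 0.000336). After the length and GC correction the first pair of values shrank to -0.70 and -0.43.

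PRDX6, the peroxiredoxin with a single reactive cysteine and a phospholipase activity (chromosome 1, 173446469 to 173457954, plus strand), moved less. It measured 201, 201 and 212 CPM in CKI, 221, 215 and 203 CPM in Kushen and 261, 248 and 248 CPM in Baituling. Baituling was highest in every library, and CKI and Kushen overlapped. PRDX6 fell by 0.30 ± 0.04 in CKI against Baituling (edgeR adjusted p 3.87e-06) and by 0.25 ± 0.04 in Kushen against Baituling (edgeR adjusted p 5.45e-05), but with library totals the values were -0.02 and -0.03 and did not pass. CKI against Kushen gave -0.06 (95% interval -0.15 to 0.03, edgeR adjusted p 0.316), and 0.02 with library totals. An antisense gene, PRDX6-AS1, lies on the opposite strand.

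The dismutases lay below Baituling in both other treatments at the TMM scale, SOD2 by more than SOD1, which library totals reversed. SOD2, the mitochondrial enzyme (chromosome 6, 160090101 to 160183561, minus strand), measured 132, 125 and 133 CPM in CKI, 140.3, 140 and 141 CPM in Kushen and 192, 191 and 199.7 CPM in Baituling. The groups were separate. SOD2 fell by 0.58 ± 0.04 in CKI against Baituling (edgeR adjusted p 1.33e-10) and by 0.47 ± 0.04 in Kushen against Baituling (edgeR adjusted p 4.43e-09), or -0.29 and -0.26 with library totals. CKI against Kushen gave -0.11 ± 0.04 (edgeR adjusted p 0.0339), which did not pass without CKI replicate 1, CKI replicate 2 or Kushen replicate 2, nor with library totals (-0.04). The row was named through its Entrez identifier and also stands for SOD2-OT1, and the locus overlaps ACAT2 and WTAP on the opposite strand.

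SOD1, the copper-zinc enzyme (chromosome 21, 33031979 to 33041244, plus strand), was nearly level. It measured 239, 244 and 245 CPM in CKI, 234, 226 and 232 CPM in Kushen and 276, 256 and 265 CPM in Baituling. The groups did not overlap, but the distances were small. SOD1 fell by 0.13 ± 0.04 in CKI against Baituling (edgeR adjusted p 0.00694), a value that became 0.16 with library totals. In Kushen against Baituling it fell by 0.20 ± 0.04 (edgeR adjusted p 0.000174), and the library-total value was 0.01. CKI lay above Kushen by 0.07 (95% interval -0.01 to 0.16, edgeR adjusted p 0.161), which passed only with library totals, at 0.15. Its direction against Baituling thus depended on the scaling.

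CAT, the peroxisomal catalase (chromosome 11, 34460481 to 34493607, plus strand), resembled PRDX1 in its order. It measured 103, 104 and 104 CPM in CKI, 112, 116 and 111 CPM in Kushen and 89.7, 81.3 and 82.1 CPM in Baituling. The groups were separate, with Baituling lowest and Kushen highest. CAT rose by 0.30 ± 0.05 in CKI over Baituling (edgeR adjusted p 9.13e-06) and by 0.42 ± 0.05 in Kushen over Baituling (edgeR adjusted p 1.01e-07), or by 0.59 and 0.64 with library totals. CKI against Kushen gave -0.13 ± 0.04 (edgeR adjusted p 0.0327), which did not pass with library totals (-0.05), with a replicate block, or without any one of CKI replicates 1 to 3 and Kushen replicate 2.

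Ordered by group means at the TMM scale, 6 members (PRDX2, PRDX5, PRDX6, GPX1, GPX4 and SOD2) were lowest in CKI, intermediate in Kushen and highest in Baituling, although for PRDX2 and PRDX6 the step between CKI and Kushen did not pass and turned over with library totals. PRDX1 and CAT had Baituling lowest and Kushen highest. PRDX3 was lowest in CKI and highest in Kushen, and SOD1 lowest in Kushen and highest in Baituling, with steps against Baituling that PRDX3 did not pass and that reversed for SOD1 with library totals.

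Compared per length, the leading transcript changed with the treatment. These levels are RPKM, CPM divided by the kilobases of the canonical transcript, and leave out SOD2, whose transcripts range from 454 to 14167 bases. By this length GPX1 was highest in Baituling at 986 ± 91.8 RPKM, followed by PRDX1 at 493, GPX4 at 475, PRDX5 at 436, PRDX2 at 346 and SOD1 at 297. In CKI PRDX1 was highest at 834 ± 19.0 RPKM, GPX4 had 359 and GPX1 165, below SOD1, PRDX2 and PRDX5. In Kushen PRDX1 had 897 ± 22.6 RPKM, GPX4 402 and GPX1 244, level with PRDX2 at 243 within their spread. PRDX3 (147 to 167 RPKM), PRDX6 (121 to 149) and CAT (36.8 to 49.4) kept the lower places in CKI, Kushen and Baituling. Divided by the summed length of all annotated exons instead, GPX1 still led in Baituling (619 RPKM) and PRDX1 in CKI (469) and Kushen (504), but PRDX5 came next in each (231 RPKM in CKI, 276 in Kushen and 436 in Baituling), ahead of PRDX1 in Baituling (277).

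Summed over all 10 genes, CKI had 2564 ± 66.6 CPM, Kushen 2829 ± 45.2 CPM and Baituling 3492 ± 187 CPM. The peroxiredoxins together gave 1634 ± 40.8, 1783 ± 19.8 and 1658 ± 62.9 CPM in the same order, with PRDX1 up and PRDX2, PRDX5 and PRDX6 down against Baituling. The glutathione peroxidases together gave 454 ± 22.5, 562 ± 44.9 and 1291 ± 112 CPM. These sums depend on the TMM factors, which were above 1 in CKI and Kushen and 0.8774 to 0.8995 in Baituling. Library totals would lower the Baituling sums relative to the others, which matters most for the peroxiredoxins, where the sums were close. GPX1 took 24.7% to 26.5% of the members' reads in Baituling, 7.28% to 8.23% in Kushen and 5.53% to 5.94% in CKI. PRDX1 took 13.0% to 13.6% in Baituling, 29.1% to 31.3% in Kushen and 30.2% to 31.3% in CKI. The Baituling libraries were thus set apart by these shares, which do not depend on the scaling. The shares are parts of 1 sum, so a larger share of GPX1 lowers those of the others. PRDX3, whose CPM differed little, took 6.92% to 7.06% in Baituling, 8.86% to 9.52% in Kushen and 8.76% to 8.95% in CKI.

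Scaling and base composition moved the smaller values. Scaled by library totals, all genes had a median of 0.32 for CKI over Baituling, 0.23 for Kushen over Baituling and 0.08 for CKI over Kushen, and the changes above are relative to TMM. The canonical transcripts of GPX1, GPX4, PRDX5 and PRDX2 have 62.4%, 62.3%, 60.6% and 58.2% GC and are under 1000 bases long, while the other members have 40.2% to 46.2%. Over the 431 genes tested that are likewise short and above 55% GC, the median log2 fold change against Baituling was -0.22 for CKI and -0.23 for Kushen. After a correction for length and GC, fitted for 9 of the 10 members because the identifier of SOD2 matched no transcript length, GPX1 was at -2.31 and -1.76. PRDX1 was then at 0.80 and 0.91 and PRDX2 at -0.37 and -0.30. The part of length, base composition and RNA quality in these differences was not tested further.

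**Figure D3:**
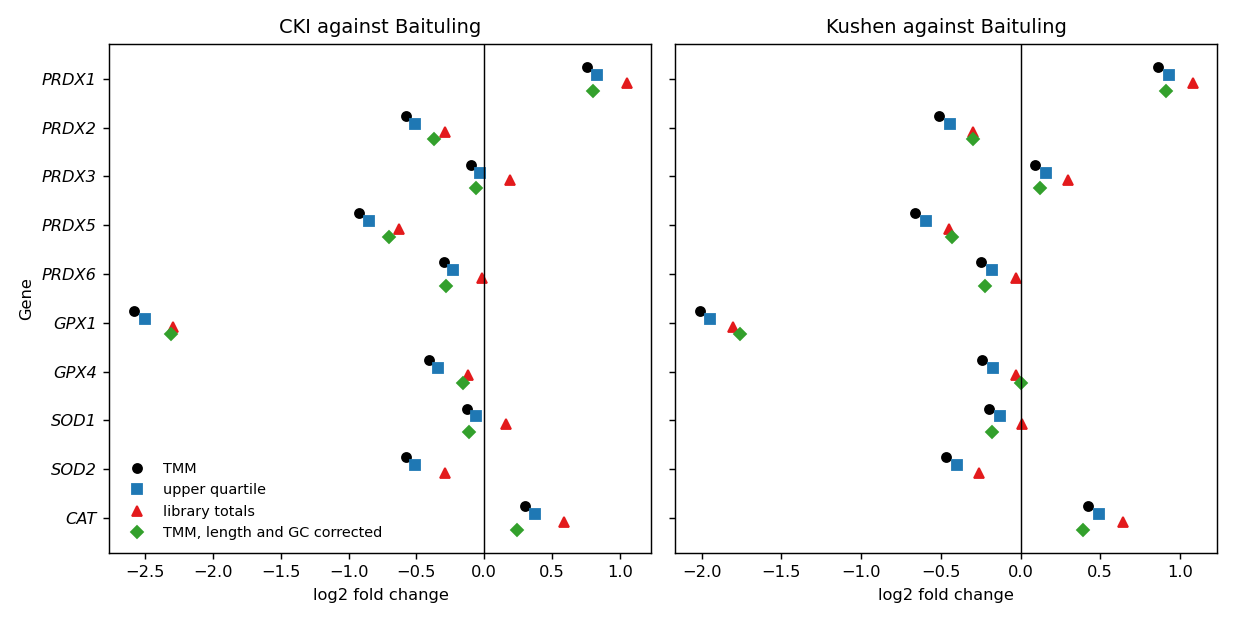
Log2 fold change against Baituling of each member (horizontal axis) in CKI and in Kushen under 4 treatments of the counts: TMM, upper quartile, library totals, and TMM with a length and GC correction, which SOD2 lacks. GPX1 stays at or below -1.76 and PRDX1 at or above 0.76 in all of them, while SOD1 crosses 0 with library totals, PRDX3 crosses it in CKI, and GPX4 reaches 0.00 in Kushen with the correction.

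The other genes of these families were measured beside the members. Of 8 written, PRDX4, GPX3, GPX7, GPX8 and SOD3 were tested, and GPX2, GPX5 and GPX6 had at most 6 counts in any library. PRDX4, the peroxiredoxin of the endoplasmic reticulum, had 136 ± 2.81, 134 ± 1.83 and 135 ± 6.38 CPM in CKI, Kushen and Baituling, with log2 fold changes of 0.01 and -0.02 against Baituling that did not pass (edgeR adjusted p 0.917 and 0.741), but with library totals these were 0.29 and 0.20 and passed. The secreted enzyme GPX3 rose by 0.56 in CKI and by 0.57 in Kushen against Baituling. GPX7, GPX8 and the extracellular dismutase SOD3 all fell in both, GPX7 by 1.69 and 1.42 (15 to 56 counts per library), GPX8 by 0.41 and 0.22 (-0.12 and -0.01 with library totals, which did not pass) and SOD3 by 1.15 and 0.93. In CKI against Baituling the called genes of these families were GPX1, GPX7 and SOD3, the last no longer called with library totals (-0.86) or the length and GC correction (-0.75).

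The partner genes were the other family members above, genes that supply reducing power, metals and selenium or peroxisomal import, sources of superoxide and peroxide, and regulators. Their lists were written with earlier results of these data known. Of the 61 partner genes tested, 25 rose and 26 fell in CKI against Baituling, beside 39.1% and 37% of all genes. In Kushen against Baituling 21 rose and 21 fell, beside 35.6% and 36.1%. In CKI against Kushen 12 rose and 13 fell, beside 19.6% and 20.2%. Scaled by library totals, the partner counts were 34 and 15, 31 and 15, and 17 and 8. Of the partner genes that then passed, 69.4%, 67.4% and 68.0% were higher, beside 71.6%, 67.3% and 69.7% over all genes. These numbers alone did not set the partner genes apart, and the counts of each list below stand beside the same shares. In the list of glutathione synthesis and cystine uptake, 4 of 5 genes rose and 1 fell in CKI against Baituling (median 1.40) and 3 rose and 2 fell in Kushen against Baituling (median 1.40). GCLM, the modifier subunit of the enzyme that begins glutathione synthesis, had 232 ± 3.94 CPM under CKI, 229 ± 5.2 under Kushen and 44.6 ± 1.07 under Baituling, a rise of 2.38 and 2.36. GCLC, its catalytic subunit, rose by 1.40 in both, and the cystine transporter SLC7A11 by 1.80 and 1.60. The rest of the list did not follow them throughout. At the TMM scale GSS fell by 0.59 in CKI and by 0.46 in Kushen, and SLC3A2 rose by 0.71 in CKI and fell by 0.17 in Kushen. GCLM, GCLC and SLC7A11 were high and GPX1 low in every CKI and Kushen group mean relative to Baituling.

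Of 14 thioredoxin and glutathione reduction genes, 6 rose and 5 fell in each comparison with Baituling. Among those that fell at the TMM scale were the thioredoxins TXN, by 0.57 in CKI and 0.34 in Kushen, and TXN2, by 0.51 and 0.34. TXNRD1, the cytosolic thioredoxin reductase and itself a selenoprotein, had 1140.3 ± 18.4 CPM under CKI, 1380.1 ± 47.7 under Kushen and 444 ± 11.5 under Baituling, a rise of 1.36 and 1.64. SRXN1, sulfiredoxin, which restores overoxidised peroxiredoxins, rose by 2.18 and 1.90, and SESN3, a sestrin, by 2.05 and 2.15. Of 6 selenoprotein synthesis genes, 3 rose and 2 fell in CKI against Baituling, and 3 rose and 0 fell in Kushen against Baituling in edgeR, with 3 not passing. SECISBP2, which binds the RNA element that directs selenocysteine insertion, rose by 0.50 and 0.67. PSTK, a kinase of selenocysteine synthesis, rose by 0.43 and 0.23. EEFSEC, the elongation factor for selenocysteine, fell by 0.54 in CKI and was at -0.12 in Kushen, which did not pass (edgeR adjusted p 0.173) and was 0.09 with library totals. The selenoprotein transcripts GPX1 and TXNRD1 went opposite ways in both comparisons.

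Of 10 metal delivery and peroxisomal import genes, 3 rose and 6 fell in CKI against Baituling and 3 rose and 3 fell in Kushen against Baituling. CCS, the copper chaperone for SOD1, fell by 0.49 and 0.42 (-0.20 and -0.21 with library totals, -0.22 and -0.15 with the length and GC correction), ATOX1, another copper chaperone, fell by 0.40 and 0.39 (-0.11 in CKI with library totals, which did not pass), and PEX5, the receptor that imports peroxisomal proteins, rose by 0.38 and 0.41. Of 13 genes tested among sources of superoxide and peroxide, 3 rose and 7 fell in CKI against Baituling and 2 rose and 4 fell in Kushen against Baituling. The oxidase NOX5 fell by 1.98 and 2.77 (105 to 646 counts per library). CYBA, the p22phox subunit of other NADPH oxidases, fell by 1.26 and 0.85 (-0.97 and -0.63 with library totals, -0.96 and -0.57 with the length and GC correction). ERO1B, an oxidase of the endoplasmic reticulum that makes peroxide, rose by 1.47 and 1.52. Of 8 regulators, 5 rose and 2 fell in CKI against Baituling and 3 rose and 4 fell in Kushen against Baituling. NFKB1 fell by 0.93 and 1.04, PPARGC1A rose by 1.40 and 1.27, and FOXO3 rose by 0.61 and 0.40.

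**Figure D4:**
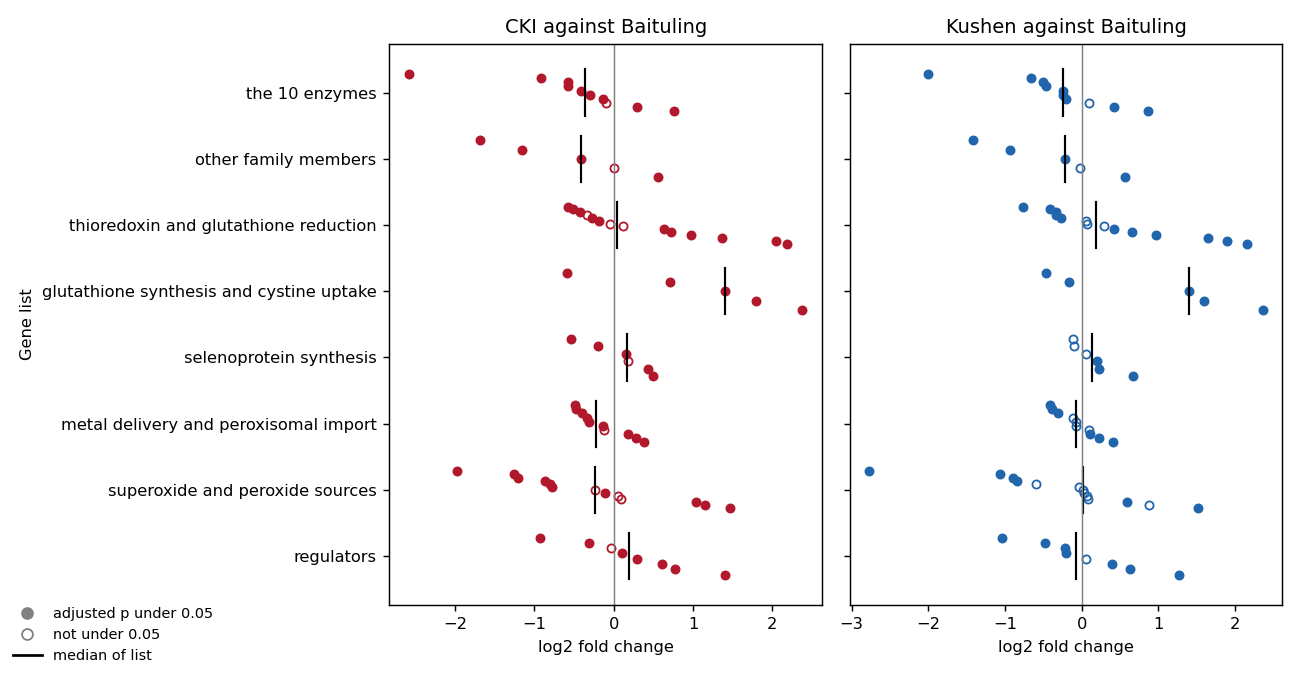
Log2 fold change against Baituling (horizontal axis, TMM scale) of the 10 enzymes and of the partner genes by list, with CKI on the left and Kushen on the right; filled points have an edgeR adjusted p under 0.05 and vertical bars are list medians. The median of glutathione synthesis and cystine uptake stands at 1.40 in both, while those of the 10 enzymes are -0.35 and -0.24; with library totals all values move upward and SOD1 crosses 0.

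The genes whose log2 CPM was most like that of GPX1 over the 9 libraries were EXOSC5, RPL28 and LGALS1, each with a Pearson correlation of 0.999. Of the 11964 genes whose log2 CPM averaged 1 or more, 922 had a correlation of at least 0.98, so such a pattern was common. The 9 points are 3 groups of 3 libraries, and the values chiefly follow the distance between Baituling and the other groups. EXOSC5, a subunit of the RNA exosome, had 18.8 ± 0.700, 24.5 ± 1.42 and 71.3 ± 4.46 CPM in CKI, Kushen and Baituling. The ribosomal protein gene RPL28 had 519.8 ± 15.3, 644 ± 24.4 and 1319 ± 103 CPM, and the galectin gene LGALS1 509.9 ± 20.4, 697 ± 18.8 and 1834 ± 112 CPM.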

How the data were processed

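RNA of MDA-MB-231 cells was sequenced as unstranded paired-end libraries, 3 for each of CKI, Kushen and Baituling. The submitters' notes name Trim Galore 0.3.7, STAR 2.5.3a and build hg19, and the authors deposited a table of raw counts per gene. The counting program and its annotation are not given in the sources used here, nor is the treatment of reads that fit several genes. Groups were taken from the sample titles, and table columns were matched by treatment initial and replicate number, with 0 columns unassigned. The 24566 rows held 222 repeats of a gene with identical counts, and 24344 genes remained. Symbols and positions came from GENCODE 44 on GRCh37 (24224 genes) or RefSeq names (99), and 21 had none. No copy of a member named as its pseudogene had a row of its own.

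Genes were filtered with edgeR 4.0.16 (R 4.3.3, minimum count 10, minimum total 15), which kept 14195. All 9 libraries were scaled by TMM (factors 1.075 to 1.099 in CKI, 1.024 to 1.047 in Kushen, 0.8774 to 0.8995 in Baituling) and fitted together by the quasi-likelihood test with group as the only term. Tests were two-sided, with Benjamini-Hochberg adjustment across every gene tested. A gene was called at an adjusted p under 0.05 and a log2 fold change above 1 or below -1. An exact permutation test of 3 against 3 cannot go below 0.1, so p-values came from the fit. The common biological coefficient of variation was 4.53%.

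Replicates differed by more than sampling noise (chi-square per gene 1.70 to 6.85), and no libraries were merged. The rule for the members uses gene symbols only, but members, partner lists and tests were chosen with earlier results of these data known. All members are named, with up to 3 genes of each partner list by smallest adjusted p in any comparison. Also named are TXN, TXN2, GSS and SLC3A2, and all tested members of the same families. The 3 genes correlating best with the member that changed most are named too. Of 69 partner genes 68 were in the table used, and TXNIP and the endothelial marker PECAM1 were not analysed here, and a leukocyte marker is not reported here. Alternatives covered other scalings (DESeq2 1.42.0 size factors, upper quartile, library totals), filters, the DESeq2 test, the groups in the fit, a replicate block, leaving out each library, and a length and GC correction (14095 genes).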

Additional observations from a re-analysis of the deposited data

How the results depend on the processing

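Across 18 alternatives, 488 of 537 values kept their direction and side of the threshold, 28 no longer passed, 15 newly passed and 6 reversed. Library totals reversed PRDX2 (0.01) and PRDX6 (0.02) in CKI against Kushen, and against Baituling PRDX3 (0.19) and SOD1 (0.16) for CKI and SOD1 (0.01) for Kushen. They gave 4 members past the adjusted threshold in CKI against Kushen, beside 6055 of 14195 genes. Called members numbered 2 in each comparison with Baituling, beside 3157 (CKI) and 2431 (Kushen) of 14195 genes. Member medians with library totals were -0.04 for CKI against Kushen and -0.07 (CKI) and -0.03 (Kushen) against Baituling. Those over all genes were 0.08, 0.32 and 0.23. Upper quartile scaling gave medians of -0.28 for CKI and -0.17 for Kushen against Baituling. The length and GC correction, chosen after seeing the data and fitted without SOD2, gave medians of -0.16 and -0.18 and GPX4 at 0.00 in Kushen against Baituling. The cause of these shifts was not tested. Leaving out 1 library gave 3 to 7 members passing in CKI against Kushen (3 without CKI replicate 1, CKI replicate 2 or Kushen replicate 2). Over all genes, between 4550 of 14359 and 5839 of 14437 then passed. The member median in Kushen against Baituling was -0.27 to -0.19 on leaving out 1 library (-0.19 without Baituling replicate 1).

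After removal of group means, same-numbered libraries of different groups correlated between -0.075 and 0.123 and others between -0.148 and 0.181. These ranges gave no sign that the numbers pair the libraries, but with 3 libraries per group they cannot exclude pairing. With a replicate block 5 members passed in CKI against Kushen, where PRDX1 (-0.10, adjusted p 0.0697) and CAT (-0.13, adjusted p 0.0516) were lost, and 9 in each comparison with Baituling, where no member's call changed. Over all genes, 270 were called in CKI against Kushen, 102 with at least 10 counts in every library, where 12735 genes were tested. In CKI against Baituling these numbers were 2715 and 1808, in Kushen against Baituling 2162 and 1415. Of the genes past the adjusted threshold, 51.4%, 49.6% and 49.2% were higher in CKI against Baituling, Kushen against Baituling and CKI against Kushen, and 71.6%, 67.3% and 69.7% with library totals. Every member had at least 1483 counts in each library, so counting error was small, but 3 libraries per group and the scaling set limits. Library totals moved the median over all genes from 0.03 to 0.32 in CKI against Baituling. In Kushen against Baituling it moved from 0.02 to 0.23, and in CKI against Kushen from 0.01 to 0.08. Differences of these sizes depended on the scaling, as for PRDX6 in CKI against Baituling (-0.30 to -0.02). GPX8, at -0.41, also no longer passed in that comparison.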
